A study of Mus musculus with 8 samples.

Results

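Mouse embryonic stem (ES) cells that had been taken toward neurons in N2B27 medium for 6 days were compared with cells of the same line taken toward neurons in KSR medium for 4 days. The 4 libraries of this comparison were picked by the medium and day in their titles, from 8 libraries in all. Each side held 1 library labelled wild type (WT) and 1 labelled knockout (KO), both on the line 46C, an ES line with a reporter gene in the Sox1 locus. The KO libraries stand in columns named DIP2C and come from a study of deletion of Dip2c, and the labels do not say how the allele was made or how many clones were used. The other 4 libraries were proliferating ES cells in stem cell medium, 1 WT and 1 KO for each of the KSR and the N2B27 series, and they gave the differences that existed between the series at day 0. The WT library of N2B27 day 6 is titled and labelled as day 6, while its column is named for day 7. Its description names a different library, that of the KO cells at KSR day 4, and the title was followed. Every genotype and condition had 1 library, so a comparison of media rested on 2 libraries a side, paired within genotype. Medium, length of induction and culture series changed together and cannot be told apart. Below, 2 values joined by "and" are those of the WT library and then the KO library.

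N2B27 is a defined medium without serum, made with the N2 and B27 supplements, in which ES cells deprived of self-renewal factors turn into neural progenitors. KSR (knockout serum replacement) is a lipid-rich albumin mixture used in place of serum, and cells induced in it also pass from an epiblast-like state toward neural plate. In the embryo, cells of the neural tube take their identity from position: Bmp and Wnt signals from the roof plate mark the dorsal side, Sonic hedgehog from the floor plate the ventral side, and Fgf, Wnt and retinoic acid the axis from forebrain to spinal cord.

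All values are FPKM, fragments scaled by transcript length and library total, as the authors deposited them. The 8 libraries summed to between 508556 and 635836 FPKM and had 13451 to 14329 genes at 1 FPKM or more. Mitochondrial genes made up 5.19% to 6.58% of the sum, lowest in the 2 N2B27 day 6 libraries. The table gives no read counts, so the depth behind each value is unknown. Dip2c was between 2.74 and 5.78 FPKM in all 8 libraries, and its level did not separate the libraries labelled KO from those labelled WT. Eif2s3y, Ddx3y and Uty, genes of the Y chromosome, were above 0 in the 4 WT libraries and listed at 0 in the 4 KO libraries.

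The differentiated cells of both media had left the ES cell state and carried neural plate genes. Pou5f1, the core pluripotency factor Oct4, stood at 699 and 631 FPKM in the KSR series and 785 and 629 FPKM in the N2B27 series at day 0, and at 47.8 and 90.4 FPKM at KSR day 4 and 17.7 and 6.70 FPKM at N2B27 day 6. Sox1, the earliest marker of the neural plate, stood at 48.6 and 42.5 FPKM at KSR day 4 and 42.9 and 56.9 FPKM at N2B27 day 6 (log2 difference 0.12 ± 0.21, adjusted p = 0.769). Its day 0 values were 2.77 and 2.51 FPKM in the KSR series and 3.003 and 1.91 FPKM in the N2B27 series. All 4 differentiated libraries were thus above all 4 day 0 libraries for Sox1 and below them for Pou5f1. In these bulk libraries fewer cells of a type and less RNA per cell cannot be told apart, here and in every result that follows.

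Of 15965 genes tested, 9.8% differed between N2B27 day 6 and KSR day 4 at an adjusted p under 0.05 (limma, Benjamini-Hochberg). In N2B27, 802 genes (5.02%) were higher and 763 (4.78%) lower, 481 and 364 of them by at least 2-fold on the scale of log2(FPKM + 1). All 1565 had the same sign in the WT pair and in the KO pair. The median difference over all genes tested was -0.0041 and the median standard error 0.193, both in log2. The test takes its spread from how WT and KO differ across the 4 conditions, so its p-values measure that spread and not the spread of repeated cultures. Counts depended on single libraries. Here and below, a count from a fit without 1 library covers every gene that fit called, also genes outside the 802 and 763. It is not the number of genes that kept their call. Without the KO KSR day 4 library 37 genes were higher and 28 lower, and without the WT KSR day 4 library 63 and 96. Without the WT N2B27 day 6 library 228 were higher and 198 lower, and without the KO N2B27 day 6 library 581 and 441. Leaving out a day 0 library gave 333 and 303 without WT KSR, 330 and 299 without KO KSR, 495 and 560 without WT N2B27, and 494 and 559 without KO N2B27. In each of these fits all 802 genes stayed above 0 and all 763 below 0. This was close to given, since the genes were called in these same libraries and had the same sign in both pairs.

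Few of these differences were already called between the day 0 cells of the same series. At day 0, 2.07% of the genes differed, 214 higher (1.34%) and 116 lower (0.727%) in the N2B27 series; without the genotype block in the fit the lower genes numbered 189. Of the 802 genes higher at N2B27 day 6, 51 (6.36%) were also higher at day 0 and 9 (1.12%) were lower. Of the 763 lower genes, 15 (1.97%) were also lower at day 0 and 6 (0.786%) were higher. Seen from day 0, 23.8% of the 214 higher genes and 12.9% of the 116 lower genes were called in the same direction after differentiation. A gene that missed the threshold at day 0 may still have differed there: 138 of the 802 higher genes (17.2%) and 66 of the 763 lower genes (8.65%) had a day 0 difference of the same sign and at least 0.5 times the size. The test of the difference between the day 6 against day 4 contrast and the day 0 contrast called 3.97% of the genes, 279 (1.75%) higher and 355 (2.22%) lower. It called 204 (25.4%) of the 802 genes higher and 255 (33.4%) of the 763 genes lower. Without WT KSR day 0 the day 0 calls came to 2 and 0, without KO KSR day 0 to 9 and 3, and without either N2B27 day 0 library to 2 and 0, while limma gave at least 1091 genes higher and 644 lower at an unadjusted p under 0.05 in each of these fits. They came to 21 and 8 without WT KSR day 4, to 19 and 8 without KO KSR day 4, to 89 and 33 without WT N2B27 day 6, and to 90 and 35 without KO N2B27 day 6. The calls of the difference came to 0 to 8 higher and 1 to 12 lower without any 1 of the 4 day 0 or the 2 KSR day 4 libraries, to 38 and 33 without WT N2B27 day 6, and to 315 and 228 without KO N2B27 day 6. At an unadjusted p under 0.05 the fewest genes in these 8 fits were 1200 higher and 1293 lower.

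The 802 and 763 genes reached their difference by unlike routes from day 0. Of the 802 higher genes, 249 were at least 2-fold above day 0 in the N2B27 series alone by the mean of both genotypes, 218 were that far above it in both series, 80 that far below it in KSR alone and 208 moved less than 2-fold in either. Of the 763 lower genes, 170 were at least 2-fold below day 0 in N2B27 alone, 145 that far above it in KSR alone, 104 that far below it in both and 269 moved less than 2-fold in either. These are counts by size, with no test.

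Genes of the dorsal neural tube were among those with the largest differences. Of the 20 genes of this list, 19 were tested, 12 were higher in N2B27 and 2 lower, against 9.8% called over all genes. Their median log2 difference was 1.68, against -0.0041 for all genes. At day 0, 1 of the 19 was higher (Zic2) and the median was 0.06. The 20 genes summed to 33.2 and 32.3 FPKM in the KSR series and 42.3 and 47.5 FPKM in the N2B27 series at that stage. On the scale of log2(FPKM + 1) such low levels leave little room for a difference at day 0. Msx1 (chr5:37820485-37824583, minus strand), a homeobox gene of the roof plate and a target of Bmp, stood at 0.804 and 0.709 FPKM at KSR day 4 and 33.7 and 32.2 FPKM at N2B27 day 6 (log2 difference 4.27 ± 0.19, adjusted p = 0.000693). Zic1 (chr9:91358058-91365810, minus strand), a zinc finger gene of the dorsal tube, stood at 10.02 and 9.97 FPKM at KSR day 4 and 143 and 186 FPKM at N2B27 day 6 (log2 difference 3.90 ± 0.18, adjusted p = 0.000758). For both genes the N2B27 libraries lay far above the KSR libraries, and the 2 genotypes of a medium lay close together. Msx3, a dorsal relative of Msx1, stood at 2.86 and 2.50 FPKM at KSR day 4 and 22.8 and 49.3 FPKM at N2B27 day 6 (log2 difference 3.23 ± 0.32, adjusted p = 0.00463). Wnt1, the roof plate ligand, stood at 0.246 and 0.591 FPKM at KSR day 4 and 5.63 and 12.01 FPKM at N2B27 day 6 (log2 difference 2.72 ± 0.28, adjusted p = 0.00517). The paired box genes Pax3 and Pax7, which mark dorsal progenitors, were also apart by medium without overlap. Pax3 stood at 10.5 and 7.45 FPKM at KSR day 4 and 44.9 and 22.9 FPKM at N2B27 day 6 (log2 difference 1.75 ± 0.27, adjusted p = 0.0154), and Pax7 at 2.98 and 4.00 FPKM at KSR day 4 and 11.2 and 24.6 FPKM at N2B27 day 6 (log2 difference 1.99 ± 0.30, adjusted p = 0.014). Msx2, Zic4, Zic5, Wnt3a, Bmp4 and Atoh1 were higher as well, by 2.15, 2.34, 1.11, 1.68, 1.82 and 1.42 in log2. The 2 lower members were Lhx9 (-1.32) and Lhx2. Olig3, a gene of dorsal progenitors, stood at 9.18 and 20.3 FPKM at KSR day 4 and 13.1 and 20.4 FPKM at N2B27 day 6, with overlapping media (log2 difference 0.24 ± 0.28, adjusted p = 0.634). Msx1 and Zic1 kept the call with any 1 library left out. Msx3 and Wnt1 lost it without KO KSR day 4 (largest adjusted p 0.0576), and Pax3 and Pax7 lost it without either KSR day 4 library, Pax3 also without WT N2B27 day 6 (largest 0.114). The count of 12 higher dorsal genes came to 2 without KO KSR day 4, to 5 without WT KSR day 4 and to 10 or 11 without any other library.

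**Figure D1:**
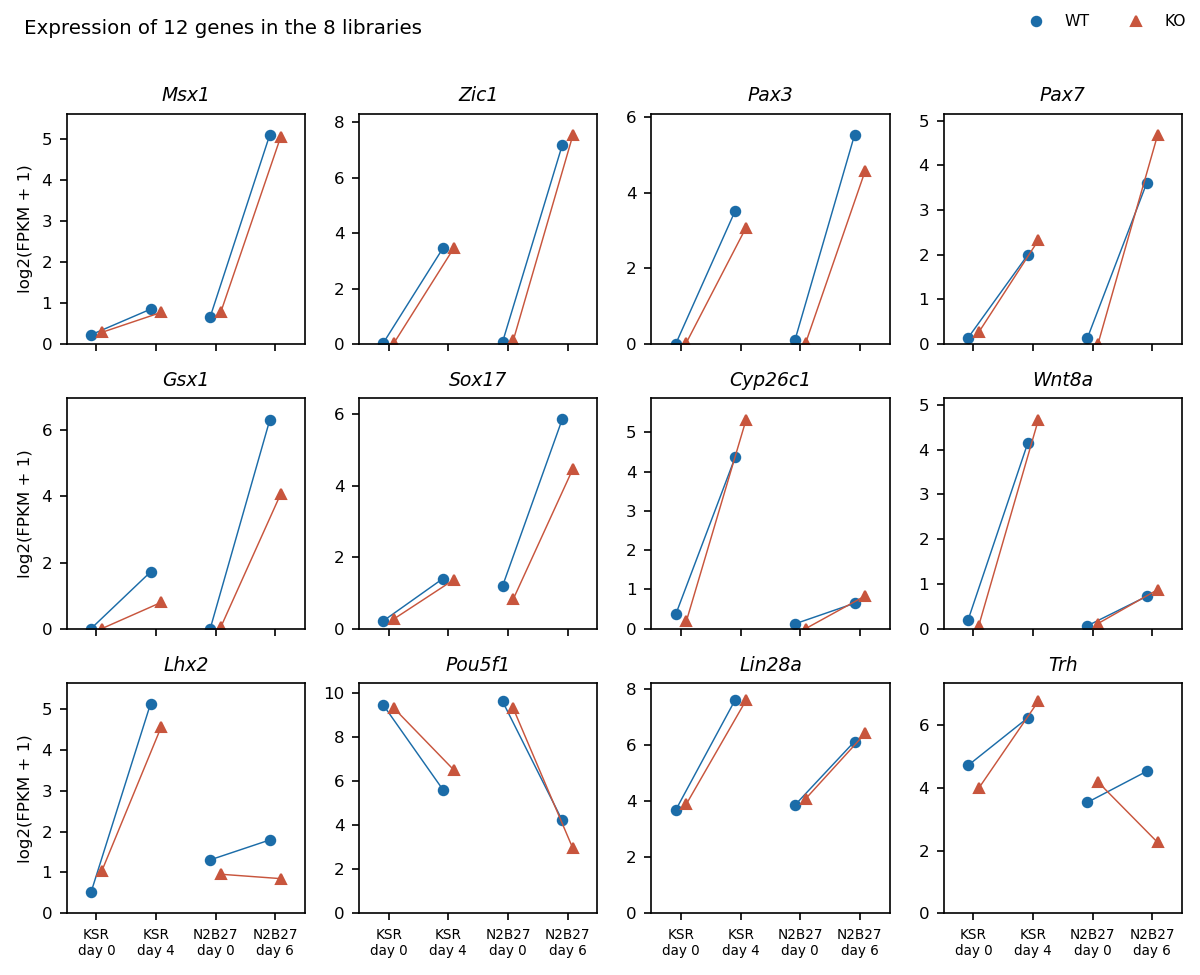
Level of 12 genes in each of the 8 libraries, as log2(FPKM + 1), at KSR day 0 and day 4 and N2B27 day 0 and day 6. Blue circles are WT libraries and red triangles KO libraries, and lines join the libraries of one genotype within a series. Msx1, Zic1, Pax3, Pax7, Gsx1 and Sox17 ended higher at N2B27 day 6, Cyp26c1, Wnt8a, Lhx2, Pou5f1, Lin28a and Trh lower, in both genotypes.

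On the opposite side of the tube fewer genes differed. Of 15 tested genes of the ventral tube and floor plate (20 in the list), 1 was higher and 3 lower in N2B27, against 9.8% called over all genes. The median was -0.52, with pair medians of -0.05 in WT and -0.88 in KO, so it lay near 0 in the WT pair. Olig2, which marks progenitors of motor neurons and oligodendrocytes, stood at 4.25 and 6.19 FPKM at KSR day 4 and 0.457 and 0.429 FPKM at N2B27 day 6 (log2 difference -2.09 ± 0.21, adjusted p = 0.00474). Nkx2-9, a ventral homeobox gene, stood at 13.3 and 8.12 FPKM at KSR day 4 and 1.66 and 1.22 FPKM at N2B27 day 6 (log2 difference -2.23 ± 0.25, adjusted p = 0.00641), and Sulf1, a heparan sulfatase, at 50.9 and 44.7 FPKM at KSR day 4 and 9.66 and 15.2 FPKM at N2B27 day 6 (log2 difference -1.89 ± 0.22, adjusted p = 0.00702). The higher member was Irx5 (log2 1.58), a homeobox gene also used outside the ventral tube. Shh itself, the floor plate ligand, stood at 2.34 and 1.75 FPKM at KSR day 4 and 2.41 and 0.778 FPKM at N2B27 day 6 (log2 difference -0.30 ± 0.27, adjusted p = 0.514), and its media overlapped. Among 16 genes of the Sonic hedgehog pathway 2 co-receptors were higher, Boc (log2 0.94) and Gas1 (0.99), and none lower, a share close to the 9.8% called over all genes. The targets Gli1 (-1.06, adjusted p = 0.15) and Ptch1 (-0.71, adjusted p = 0.245) did not pass. Gsx1, a homeobox gene of intermediate and dorsal interneuron progenitors, was among the highest differences: 2.29 and 0.736 FPKM at KSR day 4 and 78.7 and 15.7 FPKM at N2B27 day 6 (log2 difference 3.93 ± 0.53, adjusted p = 0.0113). The WT library of N2B27 lay well above the KO library, and both lay above the KSR libraries. Olig2 lost the call without KO KSR day 4 (adjusted p = 0.0548), and Nkx2-9, Sulf1 and Gsx1 without either KSR day 4 library (largest 0.0907). Boc and Gas1 lost it without either KSR day 4 library or WT N2B27 day 6, Boc also without a KSR day 0 library or KO N2B27 day 6 (largest 0.261).

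Along the length of the tube, the forebrain genes that passed the test were lower in N2B27. Of 26 forebrain genes 10 were tested, 4 were lower and none higher, against 9.8% called over all genes. Their median was -0.55. A gene near 0 elsewhere could enter the test through the 2 KSR day 4 libraries alone and then hardly differ except downward. The filter thus partly set these counts and the median. Lhx2, a LIM homeobox gene of the eye field and telencephalon, stood at 34.1 and 22.8 FPKM at KSR day 4 and 2.47 and 0.802 FPKM at N2B27 day 6 (log2 difference -3.53 ± 0.34, adjusted p = 0.00444). Fezf2, a zinc finger gene of the rostral forebrain, stood at 5.36 and 5.71 FPKM at KSR day 4 and 0.470 and 0.352 FPKM at N2B27 day 6 (log2 difference -2.21 ± 0.18, adjusted p = 0.00352). Both genes were higher in both KSR libraries than in both N2B27 libraries, and their highest value at day 0 was 1.48 FPKM (Lhx2). Lmo3 was lower as well (log2 -0.94). Otx2, which marks epiblast as well as fore- and midbrain, stood at 6.09 and 11.7 FPKM at KSR day 4 and 4.28 and 1.949 FPKM at N2B27 day 6 (log2 difference -1.26 ± 0.47, adjusted p = 0.138). At the midbrain and isthmus 2 of 15 tested genes were higher and 3 lower: Wnt1 and the Iroquois gene Irx1 (log2 2.55) against genes that included the isthmus ligand Fgf8 and the paired box gene Pax5 (-2.09). Fgf8 stood at 8.94 and 15.1 FPKM at KSR day 4 and 1.19 and 1.19 FPKM at N2B27 day 6 (log2 difference -2.53 ± 0.25, adjusted p = 0.00463). In the hindbrain and spinal cord list, 17 of 34 genes were tested, 3 were higher and 1 lower. The higher ones were Hoxa2 (0.75), Hoxa3 (1.05) and Hoxa4 (1.03), and the lower one was Egr2 (-1.43), the gene of alternate hindbrain segments that is also induced by growth factors. Hoxa2 stood at 24.6 and 20.2 FPKM at KSR day 4 and 37.0 and 39.6 FPKM at N2B27 day 6, and Hoxb1, which did not pass, at 21.7 and 20.2 FPKM at KSR day 4 and 7.93 and 14.3 FPKM at N2B27 day 6 (adjusted p = 0.0809). Hoxb9, a spinal cord gene, stood at 0.0563 and 0.0346 FPKM at KSR day 4 and 0.420 and 0.505 FPKM at N2B27 day 6 (adjusted p = 0.179). Fezf2 kept the call with any 1 library left out. Lhx2, Pax5, Fgf8 and Irx1 lost it without KO KSR day 4 (largest adjusted p 0.0652), and Hoxa2 and Hoxa4 without any 1 library (largest 0.265).

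The Wnt, retinoic acid and Fgf genes that passed the test went in both directions, while 15 of 16 tested Bmp genes had a difference above 0. In the Bmp list 7 of 16 tested genes were higher and 1 lower, against 9.8% called over all genes, with a median of 0.83. At day 0 none was higher and 3 were lower (Id2, Smad7 and Fst). Bmp4 and Msx2 of the 7 were also counted among the dorsal genes, as were Wnt1 and Wnt3a of the Wnt list below. The count of 7 came to 1 without KO KSR day 4 and to 3 to 5 without any other library. The ligand Bmp4 stood at 0.381 and 0.463 FPKM at KSR day 4 and 2.30 and 6.62 FPKM at N2B27 day 6 (log2 difference 1.82 ± 0.41, adjusted p = 0.0382). Bmp6, another ligand, stood at 1.39 and 1.04 FPKM at KSR day 4 and 6.32 and 11.0 FPKM at N2B27 day 6 (log2 difference 2.08 ± 0.26, adjusted p = 0.00863), and Id3, a target gene of Bmp, at 55.3 and 32.8 FPKM at KSR day 4 and 82.6 and 78.5 FPKM at N2B27 day 6 (log2 difference 0.90 ± 0.18, adjusted p = 0.0304). The inhibitors moved apart, Nog by 1.12 and Fst by -1.87 in log2. Smad7, the inhibitory Smad, was lower in the N2B27 series at day 0 (-0.89) and higher after differentiation (1.16). In the Wnt list 5 of 26 tested genes were higher and 4 lower. Without KO KSR day 4 limma called 0 higher, with 9 at an unadjusted p under 0.05, and 2 lower. Of the 5 higher genes 4 were ligands, Wnt1, Wnt3, Wnt3a and Wnt5a, by 2.72, 0.82, 1.68 and 1.35 in log2, and the fifth the feedback inhibitor Nkd1 (1.45). The lower ones were a ligand of early posterior embryo, Wnt8a, the secreted antagonist Sfrp1, and the nuclear factors Lef1 (-1.35) and Tcf7 (-0.68). Wnt8a stood at 16.7 and 24.5 FPKM at KSR day 4 and 0.651 and 0.829 FPKM at N2B27 day 6 (log2 difference -3.61 ± 0.22, adjusted p = 0.00164), and Sfrp1 at 109 and 95.4 FPKM at KSR day 4 and 29.5 and 27.1 FPKM at N2B27 day 6 (log2 difference -1.82 ± 0.10, adjusted p = 0.00129). Axin2, the common readout of Wnt signalling, stood at 24.3 and 20.9 FPKM at KSR day 4 and 42.9 and 37.8 FPKM at N2B27 day 6 (log2 difference 0.81 ± 0.23, adjusted p = 0.0722), apart by medium but not past the test. Lef1 was lower at day 0 as well (-1.94, adjusted p = 0.0367), and this call was lost in each of the 8 fits without 1 library. Wnt8a and Sfrp1 kept the call with any 1 library left out, Bmp6 lost it without KO KSR day 4 (adjusted p = 0.079), and Bmp4, Id3 and Lef1 each lost it without 6 or 7 of the 8 libraries (largest 0.25).

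In the retinoic acid list 5 of 20 tested genes were higher and 2 lower, while over all genes 5.02% were higher and 4.78% lower. Cyp26c1 (chr19:37685581-37693398, plus strand), an enzyme that breaks retinoic acid down, had the largest negative difference among the genes named by rule. It stood at 19.8 and 39.0 FPKM at KSR day 4 and 0.564 and 0.785 FPKM at N2B27 day 6 (log2 difference -4.11 ± 0.30, adjusted p = 0.00236), so that it was present in KSR cells of both genotypes and near 0 in N2B27 cells. Its relatives Cyp26a1 (-1.01, adjusted p = 0.123) and Cyp26b1 (0.21, adjusted p = 0.73) did not pass. Of the retinoid binding proteins Rbp4 (2.25) and Crabp2 (0.75) were higher. Rarb, a receptor and standard target gene of retinoic acid, stood at 1.97 and 2.03 FPKM at KSR day 4 and 0.996 and 2.78 FPKM at N2B27 day 6 (log2 difference -0.13 ± 0.29, adjusted p = 0.822). The orphan receptors Nr2f1 (1.12) and Nr2f2 (1.69), which mark caudal and dorsal neural tissue among others, were higher. In the Fgf list 1 of 19 tested genes was higher, the receptor Fgfr3, and 3 were lower, the ligands Fgf8 and Fgf5 (-1.57) and the feedback inhibitor Spry2 (-1.0). Fgfr3 stood at 10.9 and 7.65 FPKM at KSR day 4 and 35.1 and 41.0 FPKM at N2B27 day 6 (log2 difference 1.94 ± 0.25, adjusted p = 0.00935). The Erk readouts Dusp6 (-0.09, adjusted p = 0.803) and Spry4 (-0.49, adjusted p = 0.234) did not pass. Cyp26c1 kept the call with any 1 library left out and Fgfr3 lost it without KO KSR day 4 (adjusted p = 0.0835). Rbp4, Crabp2 and Nr2f2 each lost it without 5 to 7 of the libraries (largest 0.256).

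Some progenitor and radial glia genes were higher in N2B27, while Sox1, Sox2 and Pax6 did not pass the test. Of 27 tested neural plate and progenitor genes 12 were higher and 1 lower (Ptn, a secreted growth factor), against 9.8% called over all genes. Their median was 0.57 and their day 0 median 0.03. Vim, the intermediate filament of progenitors and of mesenchymal cells, stood at 197 and 135 FPKM at KSR day 4 and 866 and 878 FPKM at N2B27 day 6 (log2 difference 2.41 ± 0.25, adjusted p = 0.00548). Fabp7, a fatty acid binding protein of radial glia, stood at 70.1 and 53.4 FPKM at KSR day 4 and 358 and 205 FPKM at N2B27 day 6 (log2 difference 2.13 ± 0.23, adjusted p = 0.00548), and Nes, the intermediate filament nestin, at 40.3 and 31.9 FPKM at KSR day 4 and 84.3 and 89.6 FPKM at N2B27 day 6 (log2 difference 1.25 ± 0.16, adjusted p = 0.00921). For these 3 genes both N2B27 libraries exceeded both KSR libraries. Sox2 (198 and 176 FPKM at KSR day 4 and 154 and 189 FPKM at N2B27 day 6; log2 difference -0.13 ± 0.14, adjusted p = 0.583) and Pax6 (52.8 and 38.6 FPKM at KSR day 4 and 69.0 and 53.1 FPKM at N2B27 day 6; log2 difference 0.42 ± 0.19, adjusted p = 0.217) did not pass. Tnc, a matrix protein of radial glia and mesenchyme, stood at 0.158 and 0.193 FPKM at KSR day 4 and 3.94 and 9.71 FPKM at N2B27 day 6 (log2 difference 2.63 ± 0.31, adjusted p = 0.00749). Nfia, a factor of the gliogenic switch, was higher by 1.5 in log2. The glial list, with 15 of 20 genes tested, had 4 higher and 2 lower members, the latter Olig1 and Olig2. Vim lost the call without KO KSR day 4, and Fabp7, Nes, Tnc and Nfia lost it without either KSR day 4 library (largest adjusted p 0.0918). The count of 12 higher progenitor genes came to 1 without KO KSR day 4, to 5 without WT KSR day 4, to 7 without WT N2B27 day 6 and to 9 to 12 without any other library.

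Genes of the Notch pathway, which holds progenitors back from differentiating, were higher where they differed: 4 of 17 tested genes, with none lower and a median of 0.64. The share called over all genes was 9.8%. Hes5, the neural effector of Notch, stood at 20.01 and 10.004 FPKM at KSR day 4 and 76.0 and 53.1 FPKM at N2B27 day 6 (log2 difference 2.09 ± 0.26, adjusted p = 0.00863). The ligand Dll1 stood at 33.4 and 28.6 FPKM at KSR day 4 and 123 and 55.6 FPKM at N2B27 day 6 (log2 difference 1.40 ± 0.27, adjusted p = 0.0269), and the feedback inhibitor Nrarp at 18.3 and 15.5 FPKM at KSR day 4 and 75.7 and 39.2 FPKM at N2B27 day 6 (log2 difference 1.64 ± 0.30, adjusted p = 0.0231). Hes5 and Dll1 did not overlap between the media. Hes1, the other classic effector, did not pass (-0.32, adjusted p = 0.346). Among 25 tested proneural and early neuronal factors 9 were higher and 1 was lower, with a median of 1.30. Scrt2, a zinc finger repressor of newborn neurons, stood at 2.49 and 2.80 FPKM at KSR day 4 and 29.7 and 8.43 FPKM at N2B27 day 6 (log2 difference 2.23 ± 0.45, adjusted p = 0.0297), and the proneural factor Neurog1 at 2.98 and 2.88 FPKM at KSR day 4 and 12.6 and 7.23 FPKM at N2B27 day 6 (log2 difference 1.43 ± 0.24, adjusted p = 0.0193). Neurog2, another proneural factor, stood at 3.85 and 2.09 FPKM at KSR day 4 and 47.3 and 4.09 FPKM at N2B27 day 6 and did not pass (log2 difference 2.02 ± 0.74, adjusted p = 0.134); its KO library of N2B27 lay near the KSR libraries. The lower member was Neurog3 (log2 -1.64). Hes5 lost the call without KO KSR day 4 or WT N2B27 day 6, Neurog1 without these or WT KSR day 4, Nrarp without 5 libraries, Scrt2 without 6 and Dll1 without 7 (largest adjusted p 0.197). With the KO N2B27 day 6 library left out 17 of the 25 proneural genes were higher, and without either KSR day 4 library limma called none, with at least 10 higher at an unadjusted p under 0.05.

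Medians of the neuronal lists were larger in the WT pair than in the KO pair. This contrast was not tested, and it rests on the WT N2B27 library whose column is named for day 7. For the proneural list the median difference was 1.80 in the WT pair and 0.54 in the KO pair. For 34 tested genes of the neuronal cytoskeleton it was 1.09 and -0.09, and for 34 tested synapse and transmitter genes 0.89 and -0.19. Over all genes the medians were -0.0118 and 0.0. In the joint fit 4 cytoskeleton genes were higher and 1 lower, and 3 synapse genes higher and 1 lower. These shares are not far from the 9.8% called over all genes. Dcx, a microtubule protein of migrating neurons, stood at 2.91 and 4.11 FPKM at KSR day 4 and 21.7 and 4.69 FPKM at N2B27 day 6 (log2 difference 1.35 ± 0.53, adjusted p = 0.158). Elavl3, an RNA binding protein of neurons, stood at 6.48 and 6.56 FPKM at KSR day 4 and 36.8 and 9.13 FPKM at N2B27 day 6 (log2 difference 1.38 ± 0.45, adjusted p = 0.104), and Gap43, a growth cone protein, at 20.8 and 29.2 FPKM at KSR day 4 and 92.1 and 21.5 FPKM at N2B27 day 6 (log2 difference 0.83 ± 0.54, adjusted p = 0.358). In all 3 the WT library of N2B27 was the highest of the 4, while the KO library of N2B27 lay close to the KSR libraries. Tubb2b, a neuronal tubulin, was higher in both pairs at 182 and 159.6 FPKM at KSR day 4 and 473 and 269 FPKM at N2B27 day 6 (log2 difference 1.06 ± 0.18, adjusted p = 0.0214). The synapse genes Syn2 (0.95), Vamp2 (0.81) and Scg2 (1.46) were higher, and Shank1 (-0.88) lower. Snap25, a part of the vesicle fusion machinery, stood at 4.37 and 4.25 FPKM at KSR day 4 and 12.4 and 3.89 FPKM at N2B27 day 6 (adjusted p = 0.348), and Slc17a6, the vesicular glutamate transporter, at 2.24 and 2.78 FPKM at KSR day 4 and 6.47 and 1.76 FPKM at N2B27 day 6 (adjusted p = 0.582). Tubb2b lost the call without either KSR day 4 library or WT N2B27 day 6 (largest adjusted p 0.152), and Syn2, Scg2 and Shank1 without 6, 7 and all 8 of the libraries in turn (largest 0.257).

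**Figure D2:**
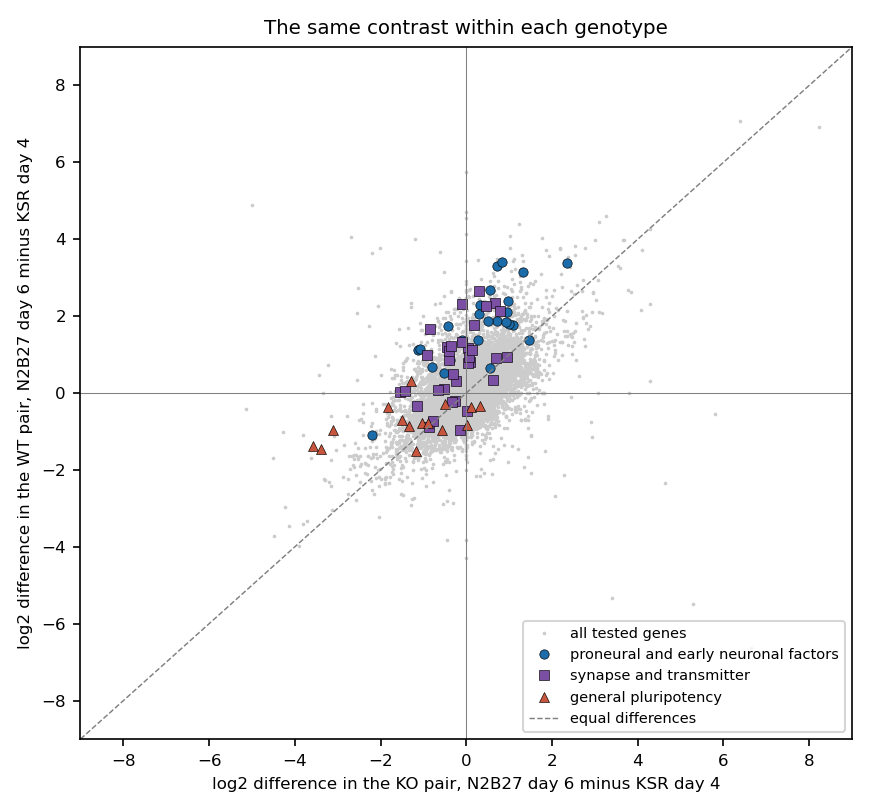
Difference N2B27 day 6 minus KSR day 4 in log2(FPKM + 1) for each gene, in the KO pair (x axis) and the WT pair (y axis). Grey points are all genes tested, circles proneural and early neuronal factors, squares synapse and transmitter genes, and triangles general pluripotency genes. Proneural genes have medians of 1.80 in WT and 0.54 in KO, and pluripotency genes medians of -0.78 and -1.18.

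Genes for kinds of neurons also had a higher median in the WT pair, again with no test of the contrast. Of 16 tested LIM homeobox and newborn neuron genes (30 in the list), 4 were higher and 1 lower, with pair medians of 1.45 in WT and 0.21 in KO. Tlx3, which directs dorsal horn neurons to the excitatory fate, stood at 0.308 and 0.274 FPKM at KSR day 4 and 14.8 and 6.41 FPKM at N2B27 day 6 (log2 difference 3.07 ± 0.38, adjusted p = 0.00868). Prrxl1, a homeobox gene of the same dorsal sensory circuit, stood at 0.167 and 0.363 FPKM at KSR day 4 and 9.62 and 1.81 FPKM at N2B27 day 6 (log2 difference 2.12 ± 0.50, adjusted p = 0.0446), and the POU factor Pou3f3 at 8.88 and 6.03 FPKM at KSR day 4 and 44.0 and 25.4 FPKM at N2B27 day 6 (log2 difference 2.05 ± 0.27, adjusted p = 0.00974). All 3 genes were apart by medium in both genotypes. Lhx1 and Lhx5, of inhibitory dorsal interneurons, differed by 1.95 and 1.34 in the WT pair and by -0.55 and -1.04 in the KO pair, a contrast of genotypes that was not tested. In the axon guidance list 4 of 31 tested genes were higher and 1 lower, against 9.8% called over all genes. Without KO KSR day 4 limma called 0 of them higher, with 9 at an unadjusted p under 0.05, and without KO N2B27 day 6 it called 7. The count was 1 without WT KSR day 4 and 2 without WT N2B27 day 6. Slit1, a repellent ligand, stood at 4.61 and 2.94 FPKM at KSR day 4 and 21.8 and 26.3 FPKM at N2B27 day 6 (log2 difference 2.41 ± 0.26, adjusted p = 0.0059), and the netrin receptor Unc5c at 1.15 and 0.817 FPKM at KSR day 4 and 4.36 and 7.26 FPKM at N2B27 day 6 (log2 difference 1.75 ± 0.25, adjusted p = 0.0123). The lower gene was the ephrin Efna5 (-1.12). Tlx3, Unc5c and Slit1 lost the call without KO KSR day 4, Tlx3 and Unc5c also without WT KSR day 4, Pou3f3 without these or WT N2B27 day 6, and Prrxl1 and Efna5 without 7 of the libraries (largest adjusted p 0.266).

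General pluripotency genes were lower in N2B27 in 9 of 15 cases, while the naive genes gave 1 call in each direction. Of 15 tested general pluripotency genes 9 were lower and none higher, with a median of -0.91; at day 0, 1 of the 15 differed (Dnmt3l, -2.78) and the median was -0.27. Lin28a, an RNA binding protein that blocks let-7 maturation, stood at 198 and 194 FPKM at KSR day 4 and 69.4 and 85.0 FPKM at N2B27 day 6 (log2 difference -1.34 ± 0.12, adjusted p = 0.00411). Pou5f1, at the levels given above, differed by -2.48 ± 0.43 (adjusted p = 0.0208), and Utf1, a chromatin factor of ES cells, by -2.42 (adjusted p = 0.0212). Nanog, the naive state factor, stood at 9.76 and 15.9 FPKM at KSR day 4 and 3.22 and 1.36 FPKM at N2B27 day 6 (log2 difference -2.10 ± 0.31, adjusted p = 0.0131). The 2 KSR libraries exceeded the 2 N2B27 libraries for all 4 genes, and the gap was wider in the KO pair for Pou5f1, Utf1 and Nanog. Of 20 tested naive genes Nanog was lower and Tbx3 (1.67) higher, with pair medians of 0.16 in WT and -0.61 in KO. Of 17 formative and epiblast genes 6 were lower and none higher, against 9.8% called over all genes. Their median was -0.74, with pair medians of -0.17 in WT and -1.31 in KO. Dnmt3b, the de novo DNA methyltransferase of epiblast, stood at 60.2 and 87.0 FPKM at KSR day 4 and 18.8 and 20.8 FPKM at N2B27 day 6 (log2 difference -1.82 ± 0.17, adjusted p = 0.00427), and Pou3f1, the Oct6 factor of epiblast and early neural plate, at 36.1 and 49.8 FPKM at KSR day 4 and 12.4 and 5.14 FPKM at N2B27 day 6 (log2 difference -2.26 ± 0.35, adjusted p = 0.0157). Fgf5, the epiblast marker, stood at 3.79 and 5.88 FPKM at KSR day 4 and 1.32 and 0.611 FPKM at N2B27 day 6 (log2 difference -1.57 ± 0.27, adjusted p = 0.0203), and Nodal differed by -1.54. The N2B27 cells had also been induced for longer, 6 days against 4. Lin28a kept the call with any 1 library left out. Nanog and Dnmt3b lost it without KO KSR day 4, Pou3f1 without either KSR day 4 library, Pou5f1 without KO KSR day 4, either N2B27 day 0 library or KO N2B27 day 6, Utf1 without KO KSR day 4 or either N2B27 day 6 library, and Fgf5 without either KSR day 4 library or KO N2B27 day 6 (largest adjusted p 0.125). The count of 9 fell to 1 to 5 when any 1 library was left out, lowest without KO KSR day 4.

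Markers of cell types other than neural ones were higher at N2B27 day 6 in part, most often those of endoderm. Of 24 endoderm genes 20 were tested, 10 were higher and 1 lower (Cer1, -1.17), against 9.8% called over all genes. Their median was 1.72 and their day 0 median 0.10. The summed level of the list was 385 and 496 FPKM at KSR day 4 and 1198 and 614 FPKM at N2B27 day 6, and at day 0 775 and 922 FPKM in the KSR series and 1048 and 933 FPKM in the N2B27 series. The sum was thus below day 0 in every pair but the WT pair of the N2B27 series. Sox17, the endoderm factor also used in endothelium, stood at 1.64 and 1.58 FPKM at KSR day 4 and 56.9 and 21.2 FPKM at N2B27 day 6 (log2 difference 3.78 ± 0.35, adjusted p = 0.00427). Gata4 and Gata6, factors of primitive endoderm and heart, were higher too. Gata4 stood at 0.540 and 1.75 FPKM at KSR day 4 and 24.0 and 8.43 FPKM at N2B27 day 6 (log2 difference 2.90 ± 0.47, adjusted p = 0.0174), and Gata6 at 0.696 and 1.46 FPKM at KSR day 4 and 13.6 and 5.17 FPKM at N2B27 day 6 (log2 difference 2.22 ± 0.41, adjusted p = 0.0244). Foxa2, shared with the floor plate, did not pass (17.1 and 15.1 FPKM at KSR day 4 and 32.0 and 9.38 FPKM at N2B27 day 6; log2 difference 0.12 ± 0.44, adjusted p = 0.901). The 2 genotypes lay apart here: the pair medians of the list were 2.42 in WT and 0.98 in KO. Col4a1 and Col4a2, the main chains of basement membrane collagen and abundant in parietal endoderm, stood at 16.8 and 19.7 FPKM at KSR day 4 and 240.2 and 93.4 FPKM at N2B27 day 6 and at 13.3 and 14.5 FPKM at KSR day 4 and 167 and 79.5 FPKM at N2B27 day 6 (log2 difference 2.98 ± 0.45, adjusted p = 0.0147; log2 difference 2.96 ± 0.28, adjusted p = 0.00435). The keratins Krt8 (1.75) and Krt18 (1.99), the endocytic adaptor Dab2 (1.71) and the receptor Cubn (1.86) were higher as well. Whether these genes came from endoderm-like cells or from neural cells was not tested. Sox17 and Col4a2 kept the call with any 1 library left out; Gata4 and Col4a1 lost it without either KSR day 4 library or WT N2B27 day 6, and Gata6 without 7 of the libraries (largest adjusted p 0.169). With WT N2B27 day 6 or WT KSR day 4 left out 2 of the 20 endoderm genes were higher.

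Among neural crest and matrix genes, most of those that passed the test were higher in N2B27. Of 14 tested crest genes 6 were higher and none lower, against 9.8% called over all genes. Of the 6, 3 (Pax3, Msx1 and Sox9) also mark the neural tube. Without either KSR day 4 library 2 were higher. Tfap2b, of crest and dorsal interneurons, stood at 1.99 and 2.07 FPKM at KSR day 4 and 21.9 and 19.3 FPKM at N2B27 day 6 (log2 difference 2.83 ± 0.19, adjusted p = 0.00192), and its relative Tfap2a at 0.331 and 0.342 FPKM at KSR day 4 and 12.3 and 5.48 FPKM at N2B27 day 6 (log2 difference 2.80 ± 0.34, adjusted p = 0.00763). Twist1 differed by 1.34 and the crest regulator Foxd3, also an ES cell factor, by -1.11 (adjusted p = 0.0796). In the fibroblast and smooth muscle list 6 of 15 tested genes were higher and 1 lower (Thy1, -1.83). Col3a1, a fibrillar collagen, stood at 0.396 and 0.184 FPKM at KSR day 4 and 9.75 and 8.90 FPKM at N2B27 day 6 (log2 difference 3.0 ± 0.19, adjusted p = 0.00164), and was listed at 0 in all 4 day 0 libraries. In the matrix list 11 of 26 tested genes were higher and 2 lower (Lama5, -1.15, and Vcan, -0.81), with a median of 0.78 against -0.24 at day 0, and 9 also passed the test of the difference from day 0. The count of 11 came to 3 without either KSR day 4 library. Sparc, a collagen binding matrix protein, stood at 90.3 and 103 FPKM at KSR day 4 and 426 and 289 FPKM at N2B27 day 6 (log2 difference 1.85 ± 0.17, adjusted p = 0.00427). The laminin chains Lama1 (1.92) and Lamc1 (1.20) and the fibronectin gene Fn1 (0.71) were higher. Tfap2b, Col3a1 and Sparc kept the call with any 1 library left out, and Tfap2a and Fn1 lost it without either KSR day 4 library, Fn1 also without KO N2B27 day 6 (largest adjusted p 0.116).

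The remaining lists of cell types gave 0 to 4 calls each. Over all genes 9.8% were called. Of 5 tested mesoderm genes 1 was higher (Pdgfra, 2.01), and of 8 blood and endothelium genes 1 was higher (Flt1, 1.85) and 1 lower (Cd34, -1.23). Of 13 surface ectoderm genes 1 was higher (Tfap2a) and 2 lower (Epcam, -1.57, and Esrp1, -1.49), and of 21 germline genes 3 were higher and 1 lower. None of 7 striated muscle or 6 trophoblast genes passed. Brachyury, the mesoderm factor encoded by T, stood at 3.35 and 6.43 FPKM at KSR day 4 and 2.11 and 2.73 FPKM at N2B27 day 6 (adjusted p = 0.101). The embryonic globin Hbb-bh1 stood at 1.14 and 2.18 FPKM at KSR day 4 and 0.351 and 10.9 FPKM at N2B27 day 6 (adjusted p = 0.623), with the KO library of N2B27 highest. Of 22 cadherin and junction genes 5 were higher and 3 lower, Cdh2 did not pass (0.20, adjusted p = 0.514), and Cdh1 stood at 24.5 and 45.7 FPKM at KSR day 4 and 20.1 and 7.73 FPKM at N2B27 day 6 (log2 difference -1.35 ± 0.42, adjusted p = 0.0934), lowest in the KO library of N2B27. Epcam, Esrp1 and Pdgfra each lost the call without 7 or all 8 of the libraries in turn (largest adjusted p 0.197), and Flt1 and Cd34 lost it without either KSR day 4 library, Cd34 also without WT N2B27 day 6 (largest 0.133).

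**Figure D3:**
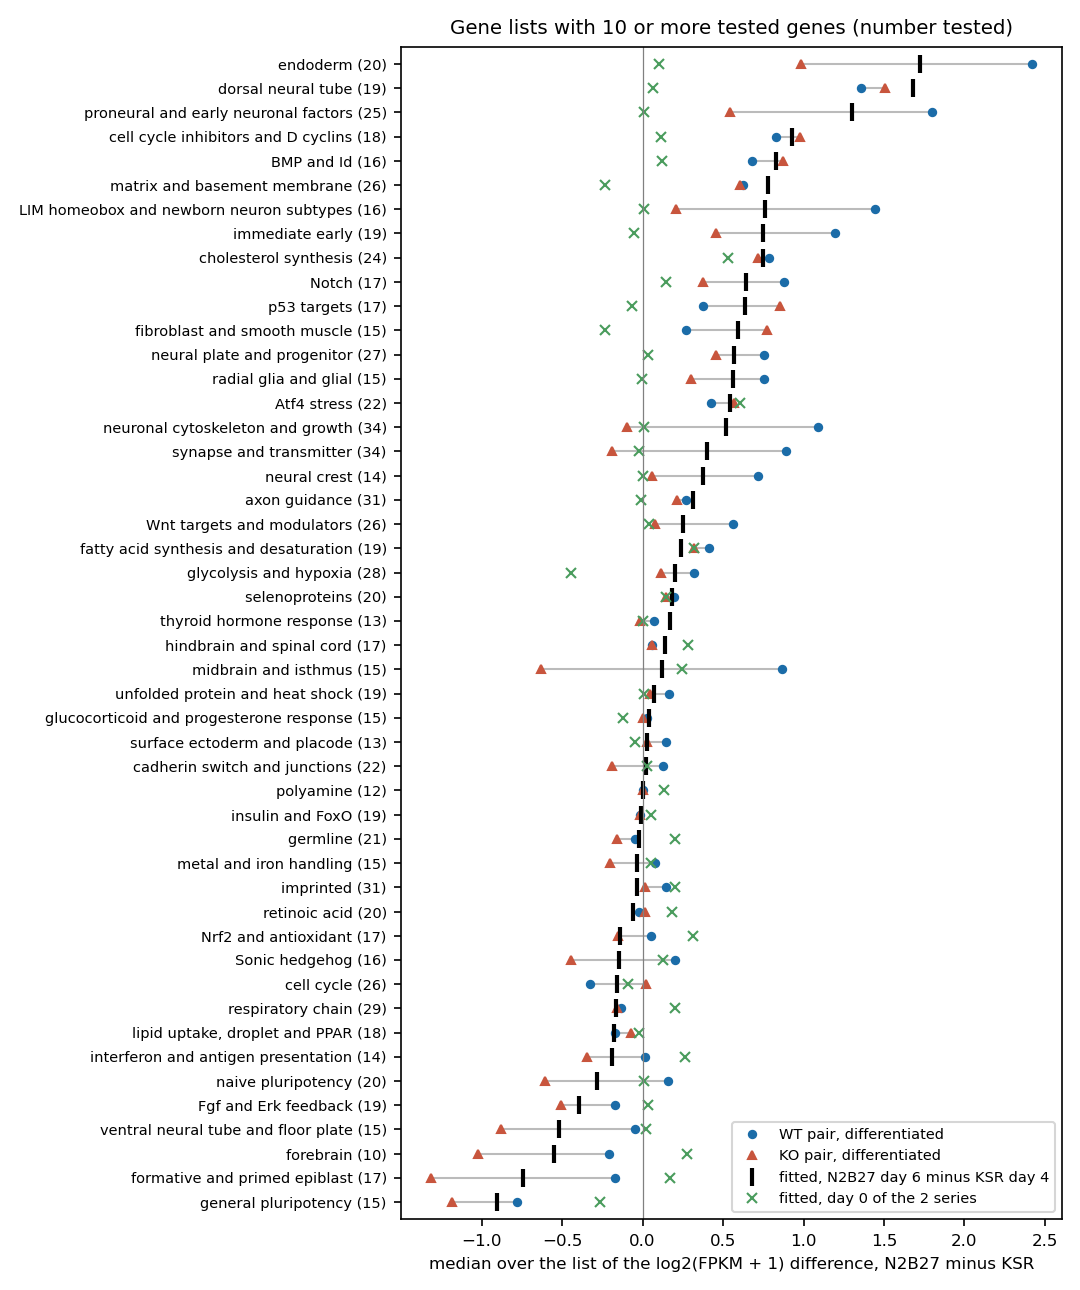
Median difference N2B27 day 6 minus KSR day 4, in log2(FPKM + 1), for gene lists with at least 10 tested genes. Blue dots are the WT pair, red triangles the KO pair, black ticks the fitted difference, and green crosses the difference between the day 0 libraries. The endoderm and dorsal lists have the highest fitted medians, 1.72 and 1.68, with day 0 medians of 0.10 and 0.06, while for cholesterol synthesis the day 0 median of 0.53 lies close to the fitted 0.75.

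Part of the genes of lipid synthesis were called in the same direction at day 0 and after differentiation. Of 24 tested genes of cholesterol synthesis and uptake (25 in the list) 16 were higher in N2B27 and none lower. Over all genes 9.8% were called after differentiation and 2.07% at day 0. The median of the list was 0.75, with pair medians of 0.79 in WT and 0.72 in KO. In the ES cells 7 of the 24 were already higher in the N2B27 series and none lower, with a median of 0.53, against 0.026 for all genes. The test of the difference between both contrasts called none of the 24. It called 3.97% of all genes, so a count of 0 lies near that share and does not show that the 2 differences were equal. These genes are known as joint targets of the sterol-sensing factor Srebp2, which is active when cells hold little cholesterol. Insig1, which holds the sensor in the endoplasmic reticulum, stood at 49.9 and 50.4 FPKM in the KSR series and 104 and 128 FPKM in the N2B27 series at day 0 and at 36.9 and 39.7 FPKM at KSR day 4 and 151 and 120.3 FPKM at N2B27 day 6. Its log2 difference was 1.19 (adjusted p = 0.0251) at day 0 and 1.79 ± 0.15 (adjusted p = 0.00397) after differentiation. At both stages the N2B27 libraries lay above the KSR libraries in both genotypes. Hmgcs1, which makes HMG-CoA, stood at 65.4 and 63.9 FPKM in the KSR series and 81.5 and 92.9 FPKM in the N2B27 series at day 0 and at 144 and 131 FPKM at KSR day 4 and 279.8 and 322 FPKM at N2B27 day 6 (log2 difference 1.12 ± 0.12, adjusted p = 0.00548; day 0 0.42, adjusted p = 0.118). Dhcr7, which makes the last step to cholesterol, differed by 0.88 and at day 0 by 1.10. Idi1 (0.52, adjusted p = 0.0505) just missed the threshold. Insig1 kept the call with any 1 library left out, and Hmgcs1 lost it without KO KSR day 4 (adjusted p = 0.0652). The day 0 call of Insig1 was lost without any 1 of 6 libraries (largest 0.207). The count of 16 fell to 1 without KO KSR day 4 and to 2 without WT KSR day 4, with 0 lower in each.

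Fatty acid genes were also called at both stages in part. Of 19 tested genes of fatty acid synthesis and desaturation 7 were higher after differentiation and 7 at day 0, against 9.8% and 2.07% called over all genes. None of the 19 was lower at either stage. None passed the test of the difference, which called 3.97% of all genes. The first count came to 1 without KO KSR day 4 and to 2 without WT KSR day 4. Scd2, a stearoyl-CoA desaturase abundant in brain, stood at 188 and 206 FPKM in the KSR series and 338 and 461 FPKM in the N2B27 series at day 0 and at 204 and 193 FPKM at KSR day 4 and 566 and 675 FPKM at N2B27 day 6 (log2 difference 1.63 ± 0.14, adjusted p = 0.00352; day 0 1.0, adjusted p = 0.0277). The N2B27 libraries exceeded the KSR libraries at both stages. Scd1 (1.15; day 0 0.74), the desaturase Fads2 (0.89; day 0 1.15) and the regulator Srebf1 (0.72; day 0 1.18) were called at both stages. Fasn, the fatty acid synthase, was called at day 0 (0.89, adjusted p = 0.0255) and did not pass after differentiation (0.22, adjusted p = 0.28), and Pnpla3 was called after differentiation (1.26) and not at day 0 (0.44, adjusted p = 0.253). Of 18 genes of lipid uptake, droplets and the Ppar response 2 were lower, among them Angptl4 (-1.46), an inhibitor of lipoprotein lipase, and none higher. Scd2 kept the call after differentiation with any 1 library left out, Scd1 lost it without KO KSR day 4, Fads2 without either KSR day 4 library and Angptl4 without these or WT N2B27 day 6 (largest adjusted p 0.113), and the day 0 calls of Scd1, Scd2 and Fasn were lost in each of the 8 fits (largest 0.219).

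**Figure D4:**
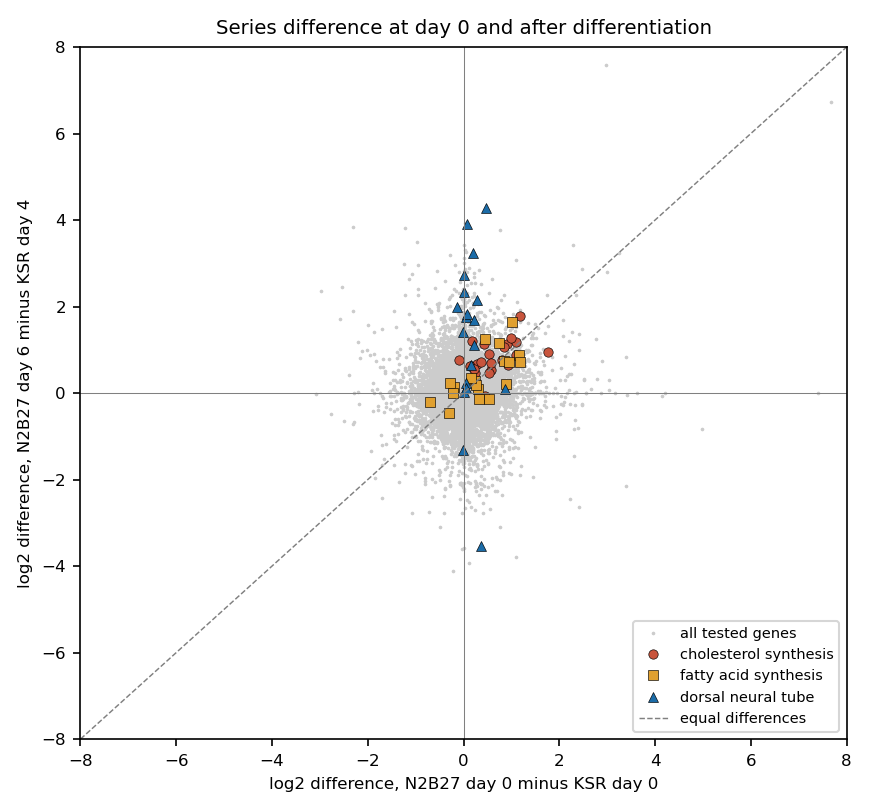
Difference between the N2B27 and the KSR series at day 0 (x axis) and after differentiation (N2B27 day 6 minus KSR day 4, y axis), both in log2(FPKM + 1). Grey points are all genes tested, circles cholesterol synthesis, squares fatty acid synthesis and desaturation, triangles the dorsal neural tube, and the dashed line marks equal values. Most cholesterol genes lie above 0 on both axes, while dorsal genes lie along the y axis near 0 at day 0. The dorsal list summed to at most 47.5 FPKM in a day 0 library, which leaves little room for a difference there.

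The promoters of cholesterol genes are shown because 16 of the 24 tested genes were higher after differentiation. At day 0, 7 of the 24 were. In the RefSeq promoter table (GRCm38.p6) 17 of the 25 genes of the list had an entry. Of the 17, 16 (94.1%) held the letters CCAAT, on either strand, within the 250 bases before a start. A gene counted if any of its promoters held the letters. Of the 20 promoters of these genes 16 (80.0%) held CCAAT, against 36.1% of the promoters of all tested genes. Of all tested genes with an entry 41.6% held it, of fatty acid genes 62.5% (10 of 16) and of dorsal genes 43.8% (7 of 16). Also searched were CACCCCA, held by 17.6% of the cholesterol genes with an entry and 8.4% of all tested genes, and CAGCTG, held by 17.6% and 14.2%; CCAAT was picked for display after these shares were seen. A match describes the sequence and does not show that a factor binds. Below, capitals mark CCAAT or its reverse complement ATTGG in the 250 bases before the start of Hmgcs1 (chr13:119690101-119690350, plus strand), with 3 matches, and Insig1 (chr5:28071162-28071411, plus strand), with 1.
Hmgcs1: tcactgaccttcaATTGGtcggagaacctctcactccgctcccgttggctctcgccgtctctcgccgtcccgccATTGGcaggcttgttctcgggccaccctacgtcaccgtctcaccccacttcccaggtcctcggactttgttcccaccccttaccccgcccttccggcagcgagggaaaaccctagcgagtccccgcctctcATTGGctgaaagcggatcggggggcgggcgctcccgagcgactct
Insig1: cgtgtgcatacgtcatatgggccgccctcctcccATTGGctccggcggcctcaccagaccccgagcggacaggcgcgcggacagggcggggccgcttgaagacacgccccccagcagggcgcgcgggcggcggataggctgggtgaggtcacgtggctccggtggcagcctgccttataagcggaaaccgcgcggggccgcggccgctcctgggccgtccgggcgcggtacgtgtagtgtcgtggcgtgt

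Some cell cycle inhibitors were higher, and a few replication genes lower. Of 18 inhibitors and D cyclins 9 were higher and none lower, against 9.8% called over all genes, and their median was 0.93. The count of 9 came to 1 without KO KSR day 4 and to 3 to 6 without any other library. Cdkn1a, the inhibitor p21, stood at 32.4 and 38.4 FPKM at KSR day 4 and 108 and 158 FPKM at N2B27 day 6 (log2 difference 1.86 ± 0.17, adjusted p = 0.00427). Cdkn1c, the imprinted inhibitor p57, stood at 23.6 and 3.06 FPKM at KSR day 4 and 104 and 33.5 FPKM at N2B27 day 6 (log2 difference 2.59 ± 0.47, adjusted p = 0.0228). Cdkn2a, which encodes p16 and Arf, differed in the ES cells already. It stood at 12.2 and 13.2 FPKM in the KSR series and 79.8 and 53.8 FPKM in the N2B27 series at day 0 (log2 2.28, adjusted p = 0.00884) and at 3.59 and 2.57 FPKM at KSR day 4 and 43.1 and 41.8 FPKM at N2B27 day 6 (log2 difference 3.42 ± 0.18, adjusted p = 0.00116). Its level after differentiation was below that of day 0 in all 4 pairs of libraries, and the difference between the contrasts was 1.14 (adjusted p = 0.0631). Of 26 cell cycle genes 5 were lower and none higher, Mcm2, Mcm4, Mcm6, Mcm7 and Tyms, by -0.44 to -0.78; the Mcm genes encode parts of the replicative helicase and Tyms makes thymidylate. Mki67, the proliferation marker, did not pass (-0.01, adjusted p = 0.995). Of 17 p53 targets 5 were higher and none lower, Cdkn1a, Mdm2 (0.83), Ccng1 (0.89), Sesn2 (1.25) and Plk2 (1.71). Cdkn2a and Plk2 kept the call with any 1 library left out, Cdkn1a lost it without KO KSR day 4 (adjusted p = 0.0548), Sesn2 without either KSR day 4 library, Mdm2 without these or WT N2B27 day 6, Cdkn1c, Mcm2, Mcm6, Mcm7 and Tyms without 5 or 6 of the libraries and Ccng1 without 7 (largest 0.229). The day 0 call of Cdkn2a was lost without 3 of the libraries (largest 0.135).

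Immediate early genes, which respond within minutes to growth factors and to handling, had 7 of 19 members higher and 1 lower (Egr2), with pair medians of 1.20 in WT and 0.46 in KO. Fos stood at 6.67 and 3.13 FPKM at KSR day 4 and 64.7 and 12.8 FPKM at N2B27 day 6 (log2 difference 2.42 ± 0.47, adjusted p = 0.027), with its day 0 values at 309 and 206 FPKM in the KSR series and 161 and 172 FPKM in the N2B27 series. Egr1 stood at 15.6 and 9.60 FPKM at KSR day 4 and 60.6 and 26.6 FPKM at N2B27 day 6 (log2 difference 1.64 ± 0.20, adjusted p = 0.00756) and Atf3 at 1.06 and 1.0499 FPKM at KSR day 4 and 8.63 and 6.00 FPKM at N2B27 day 6 (log2 difference 2.0 ± 0.27, adjusted p = 0.0114). For Fos, Egr1 and Atf3 the WT library of N2B27 was the highest of the 4 differentiated ones. The count of 7 came to 1 without either KSR day 4 library and to 2 without WT N2B27 day 6, and to 4 without either KSR day 0 library. Ccn1, a matricellular target of the same signals, stood at 10.6 and 15.7 FPKM at KSR day 4 and 65.6 and 65.3 FPKM at N2B27 day 6 (log2 difference 2.26 ± 0.23, adjusted p = 0.00529). In the list of Atf4 targets, the response to amino acid shortage, the median was 0.54, and the day 0 median was 0.60 with no call. After differentiation 3 of 22 tested genes were higher and none lower, a share not far from the 9.8% called over all genes. The 3 were Atf4 itself (1.25), the asparagine synthetase Asns (1.15) and Sesn2. Among 19 genes of the unfolded protein and heat shock responses 2 were higher (Herpud1, 1.10, and Calr, 0.46) and 2 lower (Hspa8, -0.76, and Hsph1, -0.71), against 9.8% called over all genes. Ccn1 kept the call with any 1 library left out, Atf4 lost it without KO KSR day 4, Egr1 without either KSR day 4 library, Atf3, Hspa8 and Hsph1 without these or WT N2B27 day 6 and Hsph1 also without KO N2B27 day 6, and Fos, Asns and Herpud1 without 5 or 6 of the libraries (largest adjusted p 0.247).

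Lists chosen for the supplements of the media gave calls in both directions. Over all genes 9.8% were called. B27 and N2 carry insulin, transferrin, selenium, progesterone, corticosterone, putrescine and thyroid hormone, though the recipes used are not in the labels. Of 20 selenoprotein genes 3 were higher and 2 lower, Gpx3 (1.15), Txnrd3 (0.88) and Msrb1 (0.64) against Selenop (-1.01) and Selenoi (-0.64). At day 0 the selenium-dependent genes Gpx1 (0.85, adjusted p = 0.0247) and Selenow (1.0, adjusted p = 0.0146) were higher in the N2B27 series, and neither was after differentiation (0.09 and 0.24). Tfrc, the transferrin receptor, turned over: it was higher in the N2B27 series at day 0 (1.17, adjusted p = 0.0283) and lower after differentiation (-0.90, adjusted p = 0.0228). Cp, the ferroxidase ceruloplasmin, stood at 1.27 and 1.35 FPKM at KSR day 4 and 9.12 and 38.8 FPKM at N2B27 day 6 (log2 difference 3.12 ± 0.49, adjusted p = 0.0164), and of 15 metal and iron genes 2 were higher and 2 lower. Of 13 thyroid hormone genes 1 was higher (the receptor Thra, 0.77), and the direct target Klf9 did not pass (-0.69, adjusted p = 0.142). Of 15 glucocorticoid and progesterone genes 3 were higher and 1 lower, while the standard target Fkbp5 stood at 19.96 and 22.5 FPKM at KSR day 4 and 20.4 and 20.5 FPKM at N2B27 day 6 (adjusted p = 0.826). Of 12 polyamine genes 1 was lower (Amd1, -0.59), and of 17 Nrf2 and antioxidant genes 1 was lower (Prdx1, -0.63). In the insulin and FoxO list 2 of 19 were higher, Irs1 (1.06) and the fetal growth factor Igf2, at 5.59 and 9.01 FPKM at KSR day 4 and 19.2 and 26.6 FPKM at N2B27 day 6 (log2 difference 1.54 ± 0.22, adjusted p = 0.0124), and 2 were lower. Cp and Gpx3 lost the call without either KSR day 4 library, Igf2 without these or WT N2B27 day 6, and Txnrd3, Selenop, Tfrc, Thra, Amd1, Prdx1 and Irs1 each without 5 to 8 of the libraries in turn (largest adjusted p 0.285). The day 0 calls of Gpx1, Selenow and Tfrc were lost without 6 of the libraries (largest 0.229).

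The median of the glycolysis and hypoxia genes had opposite signs at the 2 stages, with few members called. At day 0 their median was -0.44, with 2 of 28 lower in the N2B27 series (Slc2a1, -1.02, and Bnip3, -2.13) and none higher. After differentiation the median was 0.20, with 2 higher (Pgk1, 0.80, and Vegfa, 1.01) and 1 lower (Car9, -1.20), a share close to the 9.8% called over all genes. Of the 28, 3 passed the test of the difference upward, against 1.75% of all genes. None of 29 respiratory chain genes passed after differentiation, with a median of -0.16. Of 14 tested interferon and antigen presentation genes 3 were lower and none higher. Ifitm1, a membrane protein of ES cells and epiblast as well as an interferon target, stood at 21.1 and 28.8 FPKM at KSR day 4 and 4.96 and 4.38 FPKM at N2B27 day 6 (log2 difference -2.18 ± 0.18, adjusted p = 0.00352), and its neighbour Ifitm3 at 77.0 and 97.1 FPKM at KSR day 4 and 14.4 and 27.1 FPKM at N2B27 day 6 (log2 difference -2.07 ± 0.28, adjusted p = 0.0112). The third was Irf1 (-1.22). Of 31 tested imprinted genes 6 were higher and 4 lower, Igf2, Cdkn1c, Peg3 (1.14), Ndn (0.77), Usp29 (1.34) and Airn (1.09) against Phlda2 (-1.65), Snrpn (-0.98), Magel2 (-1.11) and Asb4 (-1.41). H19, the maternal RNA next to Igf2, stood at 42.2 and 67.3 FPKM at KSR day 4 and 273 and 106 FPKM at N2B27 day 6 (adjusted p = 0.0645). Ifitm1 kept the call with any 1 library left out, Ifitm3 lost it without either KSR day 4 library, Phlda2 and Vegfa without 5 or 6 of the libraries, Car9 without 7 and Pgk1 and Irf1 without any 1 (largest adjusted p 0.235).

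The remaining genes with the largest differences belonged to several tissues. Among the higher ones, the small heat shock protein Cryab stood at 0.770 and 1.72 FPKM at KSR day 4 and 27.2 and 20.8 FPKM at N2B27 day 6 (log2 difference 3.5 ± 0.30, adjusted p = 0.00408), and the KSR day 0 libraries lay above those of KSR day 4 (10.6 and 7.44 FPKM). The matrix glycoprotein Tinagl1 stood at 0.684 and 1.63 FPKM at KSR day 4 and 23.0 and 14.2 FPKM at N2B27 day 6 (log2 difference 3.18 ± 0.37, adjusted p = 0.00686), and at 9.11 and 18.3 FPKM in the KSR series and 10.7 and 10.3 FPKM in the N2B27 series at day 0. In the KSR series both genes were thus lower at day 4 than at day 0. The N2B27 day 6 libraries lay above the KSR day 0 libraries for Cryab and above the N2B27 day 0 libraries for Tinagl1. For Cryab the difference of contrasts, given below, was larger than the difference after differentiation. Among the lower ones, Wt1, the zinc finger factor of kidney, gonad and mesothelium, stood at 18.2 and 16.8 FPKM at KSR day 4 and 0.225 and 0.186 FPKM at N2B27 day 6 (log2 difference -3.94 ± 0.19, adjusted p = 0.000758), and at 0.157 FPKM or less in all day 0 libraries. Slc27a2, a fatty acid transporter and acyl-CoA synthetase, stood at 17.3 and 21.1 FPKM at KSR day 4 and 0.668 and 0.268 FPKM at N2B27 day 6 (log2 difference -3.79 ± 0.23, adjusted p = 0.00164), and the kinase Pim2 at 80.0 and 139 FPKM at KSR day 4 and 9.48 and 6.48 FPKM at N2B27 day 6 (log2 difference -3.59 ± 0.28, adjusted p = 0.00301). In these genes the 2 KSR day 4 libraries stood above the other 6. Trh, the precursor of thyrotropin-releasing hormone, stood at 74.2 and 108 FPKM at KSR day 4 and 22.1 and 3.80 FPKM at N2B27 day 6 (log2 difference -3.10 ± 0.65, adjusted p = 0.0321), lowest in the KO library of N2B27. Car2, a carbonic anhydrase, stood at 81.1 and 83.3 FPKM at KSR day 4 and 14.5 and 8.53 FPKM at N2B27 day 6 (log2 difference -2.78 ± 0.20, adjusted p = 0.00236), and was lower at day 0 as well (-1.07, adjusted p = 0.0494). Apela, a ligand of the apelin receptor expressed in ES cells, stood at 21.9 and 22.7 FPKM at KSR day 4 and 3.76 and 1.41 FPKM at N2B27 day 6 (log2 difference -2.78 ± 0.31, adjusted p = 0.0064). The ES cell genes Zscan10, Eras and Zscan4f, the last a marker of a transient cleavage-like state, were lower by -2.78, -2.75 and -2.69; near-identical copies of Zscan4f may share reads, so its level is uncertain. Cryab, Wt1, Slc27a2, Pim2, Car2, Zscan10 and Zscan4f kept the call with any 1 library left out, Apela lost it without KO KSR day 4, Eras without KO KSR day 4 or WT N2B27 day 6, Tinagl1 without either KSR day 4 library and Trh without 7 of the libraries (largest adjusted p 0.195).

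At day 0 the genes with the largest differences were mostly not those of the differentiated cells. Higher in the N2B27 series were the X-linked homeobox genes Rhox2a (3.04, adjusted p = 0.00884), Rhox2e (2.35) and Rhox5 (2.77), the maternal factor Dppa3 (2.46), the Fgf receptor-like gene Fgfrl1 (2.34) and the retinoic acid target Stra8 (2.32). Rhox2a and Rhox2e belong to a set of near-identical copies, so reads could be split among them. Dppa3 stood at 0.990 and 1.91 FPKM in the KSR series and 15.5 and 9.64 FPKM in the N2B27 series, with both N2B27 libraries above both KSR libraries. Lower were Aire (-3.08), a nuclear factor best known from thymus, the methylation cofactor Dnmt3l (-2.78), the membrane binding protein Anxa2 (-2.57), the kinase Dapk1 (-2.49), Igsf21 (-2.40) and the keratin Krt19 (-2.21). Dnmt3l stood at 31.3 and 12.6 FPKM in the KSR series and 2.84 and 1.44 FPKM in the N2B27 series, again without overlap. None of these 12 genes was called between N2B27 day 6 and KSR day 4; Rhox5 (1.26, adjusted p = 0.0888) and Anxa2 (1.72, adjusted p = 0.057) came closest. All 12 day 0 calls were lost without some of the 8 libraries, Dppa3, Anxa2 and Dapk1 without any 1 (largest adjusted p 0.282).

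The test of the difference between both contrasts called some genes with opposite signs at day 0 and after differentiation. Others were close together at day 0. Col4a2 stood at 2.09 and 1.38 FPKM in the KSR series and 0.433 and 0.365 FPKM in the N2B27 series at day 0 (log2 -0.95) and at the differentiated levels above, a difference of contrasts of 3.92 ± 0.40 (adjusted p = 0.013). Cryab had a difference of contrasts of 4.47 (adjusted p = 0.0119) and Anxa2 of 4.30 (adjusted p = 0.0271). Fosb, an immediate early gene, stood at 97.7 and 58.0 FPKM in the KSR series and 13.6 and 10.7 FPKM in the N2B27 series at day 0 and at 2.68 and 0.596 FPKM at KSR day 4 and 43.6 and 2.92 FPKM at N2B27 day 6 (difference of contrasts 5.0 ± 0.96, adjusted p = 0.0435). Lefty1, an inhibitor of Nodal, stood at 3.48 and 2.61 FPKM in the KSR series and 22.4 and 14.3 FPKM in the N2B27 series at day 0 and at 15.8 and 30.3 FPKM at KSR day 4 and 6.87 and 1.24 FPKM at N2B27 day 6 (difference of contrasts -4.68 ± 0.76, adjusted p = 0.0337). It was thus above the KSR level in the ES cells of the N2B27 series and below it after differentiation. Also called in this test were Gsx1 (3.90), Col4a1 (4.23), Slc27a2 (-4.89), Wt1 (-4.05), Cyp26c1 (-3.89), Lhx2 (-3.89) and Pim2 (-3.61). Each of these 12 calls was lost without at least 4 of the 8 libraries in turn, Anxa2 without any 1 (largest adjusted p 0.168).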

How the data were processed

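RNA from 8 libraries was sequenced as paired reads on a NovaSeq instrument from SMARTer mRNA libraries, per the labels' protocols. The authors deposited 1 table of FPKM, and per the submitters' processing notes STAR, Cufflinks and the mm10 genome were used; which versions and settings were used is not given in the sources used here. The table held 55188 entries, of which 110 repeated symbols with equal values were joined, and 24645 of the 55078 symbols were at 0 in all libraries. Columns were matched to samples by their names and the sample titles; 4 samples carry a description that points to a different library, and their titles were used.

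FPKM were analysed as log2(FPKM + 1), which understates differences of low genes, for the 15965 genes with at least 1 FPKM in at least 2 libraries. A gene can thus enter through the 2 libraries of the condition where it is high, which partly fixes the direction of its difference. limma 3.58.1 (R 4.3.3) was fitted with 4 conditions and genotype as a block (3 residual degrees of freedom, eBayes with trend), with Benjamini-Hochberg adjustment over all genes tested and a threshold of 0.05. The block pairs libraries of the same genotype, as the labels give it. Errors are standard errors of the fit. "Higher", "lower" and "called" mean past that threshold. A list is described by its counts and median, with no test of the list.

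The comparison, all lists and the rule for naming genes were chosen with earlier results of these data known. By that rule the text names, per direction, the 12 genes with the largest differences after differentiation, and 6 at day 0 and 6 for the difference of contrasts, among called genes of the same sign in both genotypes that reach a mean of 5 FPKM on one side, predicted genes aside, plus key members and the 3 largest called members of each list. Other called members, which complete a count, and those set beside them were chosen after their values were seen. Tubb3, Mvd, Foxc2, Foxf1, Acta1, Slc7a5, Cox4i1 and Cbfa2t3 are list members that were not analysed here, and some other members are counted but not reported by name. Alternatives changed the pseudocount (0.1, 5), the filter (none, 5 FPKM), the scaling, the eBayes step, the block and the libraries fitted. Promoters came from the RefSeq table of GRCm38.p6, and gene coordinates from the GENCODE annotation of GRCm38.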

Additional observations from a re-analysis of the deposited data

Results flagged for a closer look

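Some members of the lists had opposite differences between N2B27 day 6 and KSR day 4 in the WT pair and the KO pair, each by more than 0.5 in log2(FPKM + 1). With 1 library a side within a genotype, the difference between the genotypes was not tested. Over all genes tested 255 (1.6%) met this, 168 with the WT pair above 0 and 87 with the KO pair above 0.

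Factors of neurons and of the midline formed one group. The WT minus KO difference was 2.5 for Lhx1 (WT 1.95, KO -0.55), 2.38 for Lhx5 (1.34, -1.04), 1.93 for Isl1 (0.77, -1.16) and 1.67 for the midbrain gene En2 (0.88, -0.80). It was 1.5 for Foxa2 (0.87, -0.63). The median of the midbrain and isthmus list, with 15 genes tested, had these same values (0.87, -0.63) and is not a separate observation.

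Genes that respond to stress, metals or steroids were a second group, with 2.34 for the kinase Sgk1 (1.71, -0.64), 1.62 for the metallothionein Mt2 (1.1, -0.52) and 1.31 for the small heat shock protein Hspb1 (0.56, -0.75). The embryonic globins ran the other way, with -2.56 for Hbb-bh1 (-0.66, 1.9) and -1.8 for Hba-x (-0.53, 1.26).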

How the results depend on the processing

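In every alternative fit each gene called in the 8-library fit, where it was still tested, kept its sign. The genes were called in these same libraries, so this was close to given. With the call held to at least 2-fold, 481 genes were higher and 364 lower after differentiation and 137 higher at day 0. Without a filter on low values, over 30433 genes, the counts higher and lower were 209 and 242 after differentiation, 41 and 24 at day 0, and 23 and 23 for the difference of contrasts. Without the trend in eBayes 136 genes were higher at day 0. A fit of limma to the 4 differentiated or the 4 day 0 libraries alone called 0 genes higher and 0 lower, in either comparison, while 1799 and 1843 genes after differentiation and 1669 and 1167 at day 0 had an unadjusted p under 0.05; that fit has 1 residual degree of freedom. Pseudocounts of 0.1 and 5, a filter of 5 FPKM, scaling by the median ratio, quantile normalisation and robust eBayes left all 6 counts within 1.5 times.

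Without the genotype block, 919 genes were higher and 892 lower after differentiation, 290 and 189 at day 0, and 395 and 485 for the difference of contrasts. Of the 157 called genes named for the differentiated comparison 153 kept the call without the block.

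Leaving out 1 library at a time gave 37 to 581 genes higher and 28 to 560 lower after differentiation, 2 to 90 and 0 to 35 at day 0, and 0 to 315 and 1 to 228 for the difference. At an unadjusted p under 0.05 limma gave no fewer than 644 genes lower at day 0 and 1200 higher for the difference. The lowest counts after differentiation came without the KO KSR day 4 library; the lone library of a condition is then assumed to vary like the others.

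The values rest on 1 library for each genotype and condition and on FPKM without read counts, so that neither the spread between cultures nor counting error can be given. Differences of genes near 0 depend on the pseudocount. Medium, days and culture series cannot be told apart.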

Other observations

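Xist, the RNA of the inactive X chromosome, was chosen after its values were seen. It stood at 4.20 FPKM in the WT library and 4.86 FPKM in the KO library at KSR day 4, and at 0.608 and 0.383 FPKM at N2B27 day 6. In the day 0 libraries it stood at 0.420 and 0.516 FPKM in the KSR series and at 0.138 and 0.277 FPKM in the N2B27 series. The KSR day 4 libraries were thus the highest in both genotypes, including the WT libraries, in which genes of the Y chromosome were above 0.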
